A study of Mus musculus with 22 samples.

Results

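Reference genes are the yardstick of quantitative PCR (qPCR): the amount of a transcript of interest is divided by that of genes taken to be constant, so a shift in a reference passes into every ratio made with it. The genes examined here are *Actb*, *Vcl* and *Hprt*, which the study used as references for blood, and *Ppia*, *Ywhaz*, *Gusb*, *Polr2a* and *Eef1a1*, other genes in common use for this purpose. They were taken by symbol from the blood count table, and all 8 were present among its 9850 genes. The question asked of each was how far it moved between samples and between the groups of genotype and age, with and without a correction for GC content.

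Whole blood was taken by tail cut from 15 male mice. The SCA3 mice were hemizygous MJD84.2 animals, which carry the entire human ATXN3 gene with an expanded CAG repeat under its own promoter, which is not specific to a cell type. The controls were wild-type C57BL/6 mice, and no mouse was treated. At 9 months (39 to 42 weeks) there were 6 wild-type and 5 SCA3 samples, and at 17.5 months (74 to 77 weeks) again 6 wild-type and 5 SCA3 samples. Of the 7 wild-type mice 5 were sampled at both ages, and of the 8 SCA3 mice 2. Samples are named here by mouse number, 1 to 15.

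Blood mixes cells of very unlike RNA content, such as neutrophils, lymphocytes, monocytes, platelets and young red cells, so a gene that is steady within each cell type can still move with their proportions. The reference genes have diverse basic roles. *Actb* encodes cytoplasmic beta-actin and *Vcl* vinculin, which ties actin filaments to sites of adhesion. *Hprt* encodes a purine salvage enzyme, *Gusb* a lysosomal glucuronidase, *Ppia* a protein folding enzyme, *Ywhaz* a 14-3-3 adaptor protein, *Polr2a* the largest subunit of RNA polymerase II and *Eef1a1* a translation elongation factor.

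The qPCR assays of the study read only short stretches of its references, and those of *Vcl* and *Hprt* are shown to place what qPCR measures beside what sequencing measures. The primers matched reference transcripts (GENCODE M21, GRCm38) exactly, and the primer sites are in capitals.
Vcl: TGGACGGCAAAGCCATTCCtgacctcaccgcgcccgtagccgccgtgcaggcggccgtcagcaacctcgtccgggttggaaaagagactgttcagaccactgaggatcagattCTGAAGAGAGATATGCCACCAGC
Hprt: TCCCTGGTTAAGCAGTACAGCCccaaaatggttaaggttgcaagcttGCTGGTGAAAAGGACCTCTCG

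The *Vcl* amplicon of 136 bases lies at chr14:20929615-20967599 on the plus strand, in exons 1 and 2. The *Hprt* amplicon of 68 bases lies at chrX:53016386-53020128 on the plus strand, in exons 6 and 7. Both fall within coding sequence and cross an intron. Their GC content was above that of the gene in each case: 59.6% against 48.6% over the exons for *Vcl*, and 50% against 40.1% for *Hprt*. Neither pair matched another gene exactly. Mismatches were allowed only in a search of genes with at least 90% identity over 200 bases, and *Vcl* and *Hprt* had no such gene. The *Actb* primers had no exact match in another gene either. With up to 2 mismatches in each, they matched *Gm15725*, a transcribed processed pseudogene.

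The GC content over exons set *Hprt* apart from the other reference genes. At 40.1% it was at percentile 5.07 of the genes in the table, while the other members lay between 47% (*Ywhaz*) and 53.6% (*Ppia*). Other sequence features also bear on single members. Of all stretches of the *Ppia* transcript as long as a sequencing read, 43.9% had an exact copy in another gene, and 36 other genes, 32 of them annotated as pseudogenes, matched it at 90% identity or more over at least 200 bases. Reads with more than 1 alignment were not counted, so reads from such stretches could be lost, and *Ppia*, the member with the lowest level, is an uncertain one. For *Ywhaz* the share was 15.5% and for *Eef1a1* 15.9%. For the other members it was 0%. The *Vcl* transcript shares 2090 bases, 39.7% of its length, with exons of *Ap3m1* on the opposite strand. Reads were counted without regard to strand, so those of the shared bases cannot be told apart and could be lost from both counts. *Ap3m1* itself was at 50 CPM (range 35.9 to 65.2).

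Levels were compared between genes as CPM, the counts scaled to library sizes normalised by TMM, per kilobase of transcript. *Eef1a1* was highest at 4916 ± 534 (SD, n = 22), followed by *Actb* at 1434 ± 343. *Ywhaz* was at 124 ± 23.7 and *Hprt* at 70.4 ± 15.7. *Vcl*, *Polr2a* and *Gusb* followed at 19.2 ± 7.15, 18.7 ± 7.63 and 18.3 ± 2.75, which differed by less than the spread between samples. *Ppia* was last at 4.75 ± 0.948. In CPM alone, *Eef1a1* ranked 9 and *Actb* 34 among all genes, and *Ppia* ranked 9360. The deposited counts came to between 21898928 and 44390286 per sample. Genes averaging under 4 CPM had been removed from the table, a limit that all 8 members passed. The 6 wild-type samples at 9 months had 21898928 to 24847039 counts and the 6 at 17.5 months 32304025 to 44390286, so that depth and age cannot be told apart in wild-type mice. RNA integrity numbers (RIN, given for 21 samples) had medians of 7.1 in wild-type and 6.85 in SCA3 mice at 9 months, and of 6.7 and 6.2 at 17.5 months. Markers of all 7 blood cell lineages looked for were in the table, and of 6 markers of liver, brain and skeletal muscle none was.

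**Figure D1:**
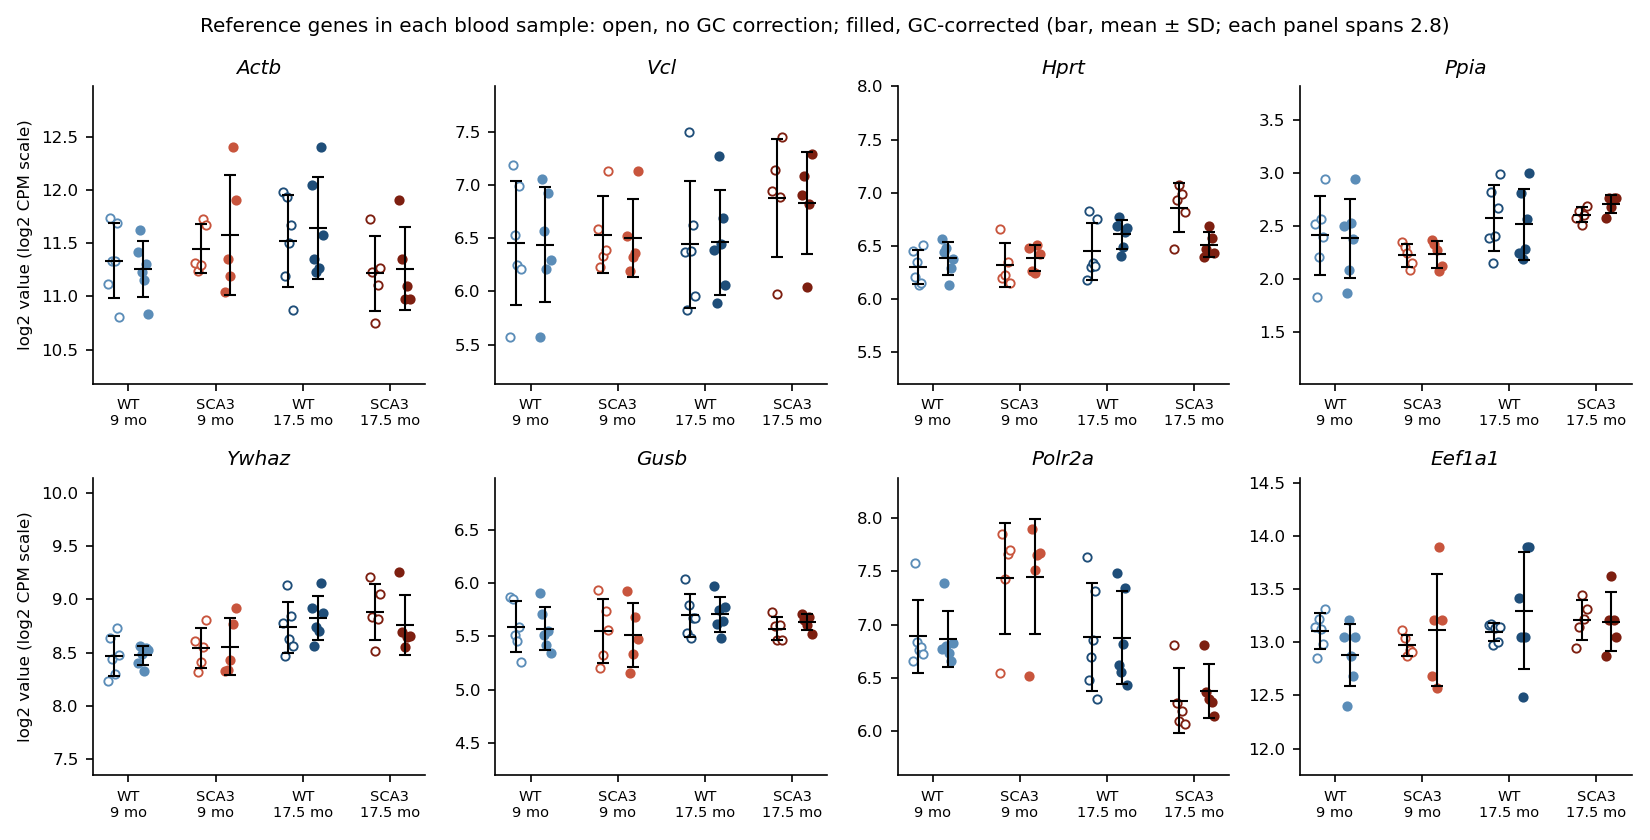
Log2 values of the 8 reference genes in each of the 22 blood samples, on the log2 CPM scale, by genotype and age (WT, wild type; 9 mo and 17.5 mo, 9 and 17.5 months), before (open) and after (filled) GC correction; bars give the mean and SD and every panel covers the same span. *Hprt* in SCA3 mice at 17.5 months falls to the level of the wild-type samples after correction, and *Polr2a* is lowest in the SCA3 samples at 17.5 months on both scales.

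Genotypes were compared by edgeR's quasi-likelihood test over all 9850 genes after GC correction, and a gene was called at an adjusted p (Benjamini-Hochberg) under 0.05. At 9 months 0 of the 8 members were called, against 0% of all genes, and at 17.5 months 0 of 8 against 0.0406%. At an unadjusted p under 0.05, *Polr2a* alone passed at either age, where 6.72% and 17.4% of all genes did. With edgeR's likelihood ratio test the count was likewise 0 at both ages, against 0.0102% and 1.26% of all genes, as it was with limma on the corrected values (0% and 0.0406%). Without GC correction *Hprt* was called at 17.5 months, where 21.1% of all genes were, and DESeq2, also without GC correction, called *Hprt* and *Polr2a* at that age (27.2% of all genes) and 0 at 9 months. With upper-quartile library sizes in place of TMM, *Polr2a* was called and *Hprt* was not (21% of all genes). The median log2 fold change of the 8 members was 0.07 at 9 months and -0.09 at 17.5 months, beside 0.0074 and -0.03 over all genes. The corrected SCA3 and wild-type values overlapped for all 8 members at both ages, while they did not for 0.244% of all genes at 9 and 3.2% at 17.5 months.

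At 17.5 months *Hprt* was the reference gene whose genotype difference GC correction shifted most. The paper reports a lower mean GC percentage of reads in SCA3 than in wild-type blood at that age. It also reports a lower bias of reads between the ends of transcripts, for which no correction was made here. It adds that an effect of GC content is hard to tell from true signal, so neither scale can be taken as the true one. In CPM, the wild-type samples at 17.5 months ranged from 72.4 to 114 with a median of 80.1. The SCA3 samples of that age were at 88.9, 113, 122, 127 and 135. Those at 122, 127 and 135 lay above all wild-type samples, and that at 113 above all but 1. The log2 fold change without correction was 0.40 (SE 0.13, edgeR quasi-likelihood test, adjusted p = 0.0389). DESeq2 gave 0.41 (adjusted p = 0.0202). With other scalings the fold change stayed positive but was not called, at 0.35 with upper-quartile library sizes (adjusted p = 0.0786) and 0.29 with library totals (adjusted p = 0.387). After correction the log2 values of the wild-type samples ran from 6.41 to 6.77 with a median of 6.65, and those of the SCA3 samples were 6.40, 6.43, 6.47, 6.57 and 6.68. These ranges overlap, and the corrected log2 fold change was -0.10 (SE 0.09, 95% interval -0.29 to 0.09, adjusted p = 0.587). At 9 months *Hprt* differed little on either scale, with log2 fold changes of 0.03 before and 0.0015 after correction (corrected interval -0.18 to 0.19).

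The shift that the correction gave to each member at 17.5 months followed GC content at its extremes. It was -0.50 on the log2 scale for *Hprt*, the most AT-rich, and 0.15 for *Ppia*, the most GC-rich. The correction removes a curve over GC content from every sample and then gives all samples the same set of values (quantile normalization). The curve alone moved *Hprt* by -0.46 and *Eef1a1* by -0.09. For *Eef1a1* both steps together moved it by -0.29, and for *Actb* by -0.08 where the curve alone moved it by 0.08. These are the most abundant members, and the second step handed them identical values in several samples: *Eef1a1* took 10 distinct corrected values in the 22 samples and *Actb* 16. Over the 20 genes with the most counts the median was 10 distinct values, and 81.9% of all genes had 22. At 9 months *Eef1a1* had a log2 fold change of -0.14 without correction, -0.18 with the curve alone and 0.29 with both steps, none of them past the threshold.

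**Figure D2:**
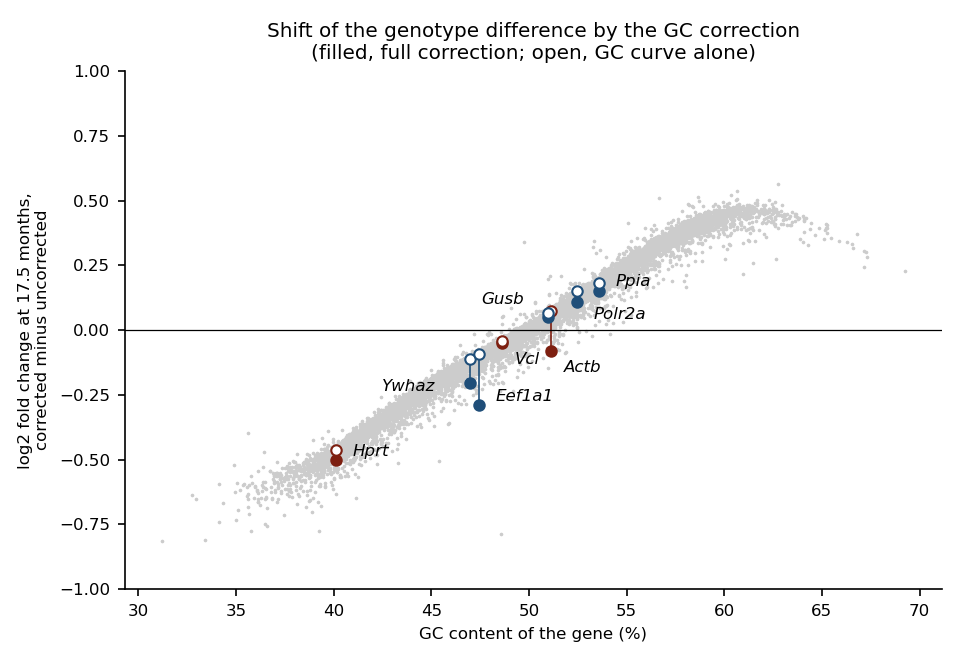
Change in the genotype log2 fold change (SCA3 against wild type) at 17.5 months made by the correction (vertical) against GC content in percent (horizontal), for all genes (grey, full correction), the study's references (red) and the other members (blue). Filled points give the full correction and open points the GC curve without quantile normalization. *Hprt*, at 40.1% GC, is shifted by -0.50, and *Eef1a1* and *Actb* are the members where the filled and open points lie farthest apart.

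**Figure D3:**
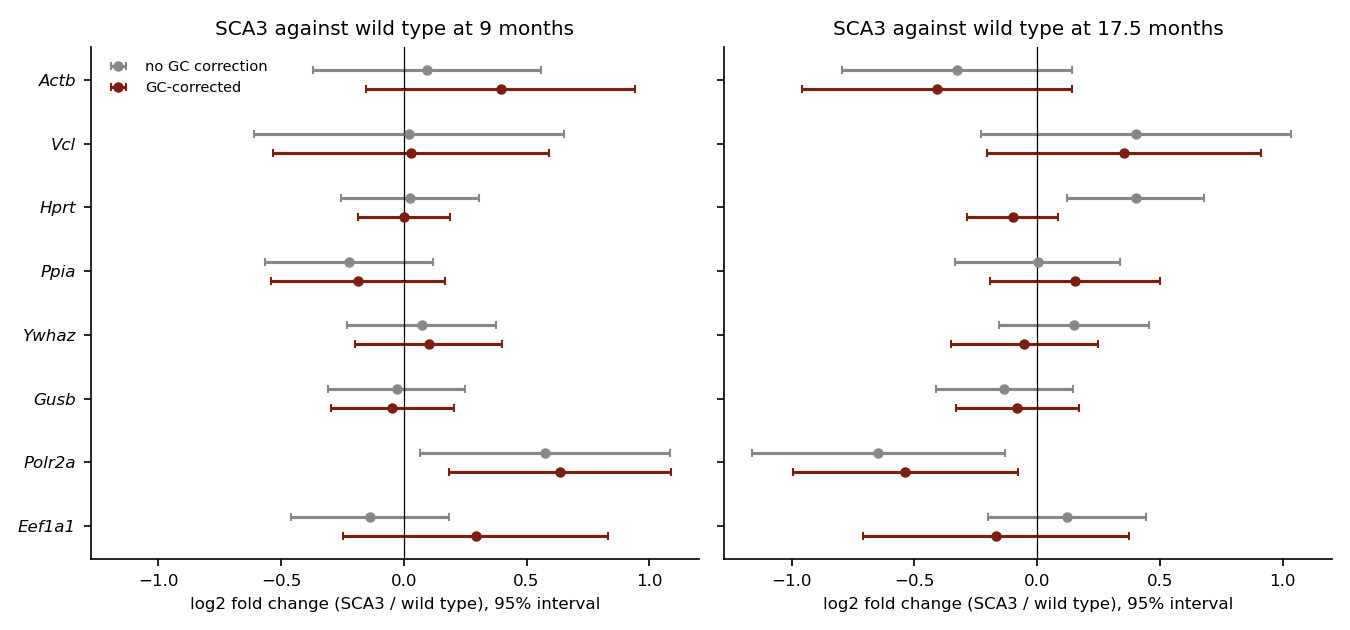
Genotype log2 fold changes of the 8 reference genes at 9 and 17.5 months (positive, higher in SCA3), with 95% intervals, without (grey) and with (red) GC correction. The *Hprt* interval at 17.5 months lies above 0 without and spans 0 with correction, and the *Polr2a* intervals lie above 0 at 9 months and below 0 at 17.5 months.

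*Actb* had wide intervals between genotypes. In CPM its wild-type values ranged from 1789 to 3422 with a median of 2580 at 9 months, and the SCA3 samples were at 2426, 2507, 2548, 3261 and 3395. At 17.5 months the wild-type range was 1870 to 4039 with a median of 3083, and the SCA3 samples were at 1728, 2208, 2403, 2458 and 3395. The groups overlap at both ages, and 4 of the 5 SCA3 samples at 17.5 months lay below the wild-type median. The corrected log2 fold change was 0.39 (SE 0.26, interval -0.15 to 0.94, adjusted p = 0.785) at 9 months and -0.41 (SE 0.27, interval -0.96 to 0.14, adjusted p = 0.43) at 17.5 months. The difference between these effects, 17.5 minus 9 months, was -0.80 (SE 0.37, edgeR quasi-likelihood test, adjusted p = 0.309). The 9-month value was 0.09 both without correction and with the GC curve alone, and 0.13 without SCA3 mouse 14. The difference became -0.42 without correction and -0.34 with the curve alone. The genes whose corrected values, after subtraction of the group means, were most like those of *Actb* over the 22 samples were *Lcp1* (Pearson r = 0.94), which encodes an actin-bundling protein of blood cells, *Gnai3* (0.92), an inhibitory G protein subunit, and *Wdr1* (0.91), a cofactor of actin filament disassembly. With the GC curve alone they were *Sri* (0.94), *Rin3* (0.94) and *Lasp1* (0.93).

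*Vcl* was among the most variable reference genes, and its spread between mice of a group was larger than its genotype differences. In CPM the wild-type samples ran from 47.5 to 146 with a median of 84.1 at 9 months and from 56.7 to 180 with a median of 83.0 at 17.5 months. The SCA3 samples were at 74.9, 80.5, 84.0, 96.4 and 140 at 9 months, and at 62.9, 118, 123, 141 and 175 at 17.5 months. Of these, 4 of the 5 later SCA3 samples lay above all but 1 of the wild-type samples of their age, but the lowest was near the bottom of that range. The corrected log2 fold change was 0.03 (SE 0.27, interval -0.53 to 0.59, adjusted p = 0.991) at 9 months and 0.35 (SE 0.27, interval -0.21 to 0.91, adjusted p = 0.509) at 17.5 months.

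The samples with extreme levels of *Vcl* also had extreme levels of platelet markers, though not every sample followed this. The genes most like it were *Rtn3* (r = 0.97) and *Rtn4* (0.96), reticulons of the endoplasmic reticulum, and *F5* (0.95), coagulation factor V. With the GC curve alone *Itgb1* (0.98) and *Itga6* (0.97), integrin subunits of platelets and other cells, led before *F5* (0.96). The samples share the normalisation, and some share a mouse, so these values are descriptions. All 10 platelet markers were in the table, led by *Ppbp*, a platelet chemokine precursor, at 3681 CPM. Their summed level ranged from 3631 to 11433 CPM in wild-type and 6145 to 12104 CPM in SCA3 mice at 9 months, and from 5141 to 19034 and 4668 to 14495 CPM at 17.5 months. In the 3 samples with the most *Vcl* the sum was 19034, 14495 and 11187 CPM, and in the 3 with the least it was 3631, 5273 and 5141 CPM. *Vcl* was highest among all samples in wild-type mouse 8 at 17.5 months and lowest in wild-type mouse 5 at 9 months, which also held the highest and lowest platelet sums. SCA3 mouse 15 at 9 months went against this, with 140 CPM of *Vcl* at a sum of 7210 CPM, as did SCA3 mouse 3 at that age, with 96.4 CPM at a sum of 12104 CPM. The part of platelets in the *Vcl* values was not tested, and in whole blood more cells of a type and more RNA per cell cannot be told apart.

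**Figure D4:**
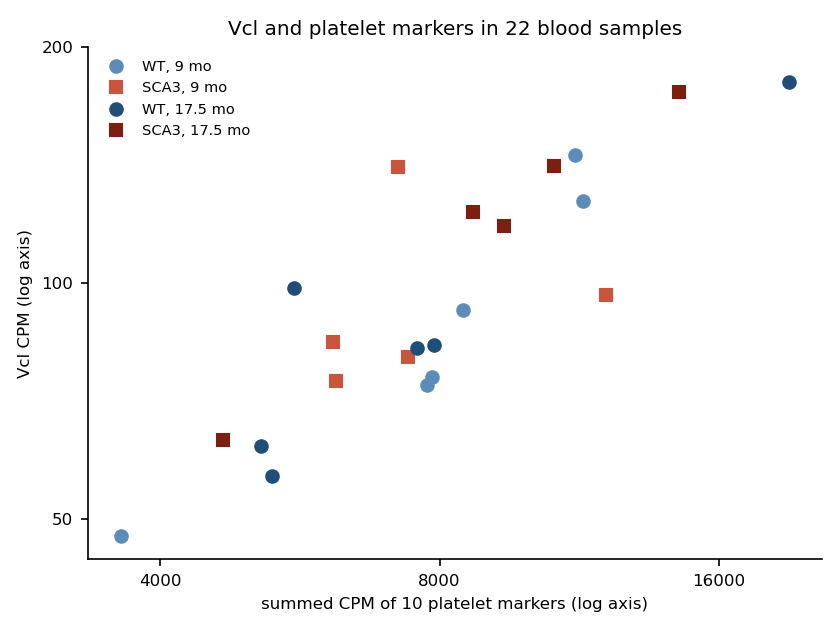
*Vcl* level in CPM (vertical, log axis) against the summed CPM of 10 platelet markers (horizontal, log axis) in the 22 blood samples, by genotype and age. The lowest point is at 47.5 CPM of *Vcl* and 3631 CPM of markers and the highest at 180 and 19034 CPM.

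Among the genes most like *Hprt* were *Akr1a1* (r = 0.85), an aldehyde reductase, and *Psmb4* (0.83), a proteasome subunit. These r values were lower than those of *Actb* and *Vcl*, and *Hprt* itself spread less. With the GC curve alone *Psmb4* (0.78) was again among the first 3.

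*Polr2a* was the member with the largest genotype differences, in opposite directions at the 2 ages, neither of which passed the threshold over all genes. At 9 months the wild-type samples ran from 101 to 191 CPM with a median of 109, and the SCA3 samples were at 93.1, 172, 202, 208 and 231. At 17.5 months the wild-type samples ran from 78.6 to 199 CPM with a median of 110, and the SCA3 samples were at 67.1, 68.2, 72.6, 76.8 and 112. Hence at 9 months the SCA3 samples at 202, 208 and 231 CPM lay above all wild-type samples, and that at 172 above all but 1. At 17.5 months 4 of 5 SCA3 samples lay below all wild-type samples. The corrected log2 fold change was 0.64 at 9 months (SE 0.22, interval 0.18 to 1.09, adjusted p = 0.738) and -0.54 at 17.5 months (SE 0.22, interval -0.996 to -0.0792, adjusted p = 0.214). The difference between the genotype effects was -1.17 (SE 0.31, interval -1.82 to -0.53), which missed the threshold over all genes (edgeR quasi-likelihood test, adjusted p = 0.209). For that difference 0 of the 8 members and 0% of all genes were called with edgeR. DESeq2 without GC correction called *Polr2a* (-1.21, adjusted p = 0.0286), where 5.5% of all genes were called. At an unadjusted p under 0.05, *Actb* and *Polr2a* passed in edgeR, where 15.3% of all genes did. Without the 9-month sample of SCA3 mouse 3, the lone low SCA3 value at that age, the *Polr2a* difference became -1.34 and was called (adjusted p = 0.0245). Leaving out each of the other 21 samples gave no call, with adjusted p of up to 0.386.

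On average, *Polr2a* was lower in the SCA3 samples at 17.5 months than in those at 9 months. The corrected log2 fold change between 17.5 and 9 months was -1.12 (SE 0.23, interval -1.60 to -0.64, edgeR quasi-likelihood test, adjusted p = 0.00967), and *Polr2a* was the 1 member of 8 called, against 11.5% of all genes. At an unadjusted p under 0.05 *Ppia* passed as well, where 28.8% of all genes did. The *Polr2a* level fell from 202 to 72.6 CPM in SCA3 mouse 14 and from 208 to 67.1 CPM in SCA3 mouse 15, the mice sampled at both ages. Leaving out each sample in turn gave -1.29 to -1.01, with adjusted p of 0.000744 to 0.0362. With RIN as a covariate, which drops the SCA3 sample without one, the value was -1.08 and the adjusted p 0.0544, so that the call was lost and 0 members were called, against 1.14% of all genes. In wild-type mice the change of *Polr2a* was 0.05 (SE 0.21, interval -0.39 to 0.48, adjusted p = 0.95). Of the 5 wild-type mice sampled at both ages, it was lower at 17.5 months in 3 and higher in 2 after correction.

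The remaining members gave no further call with age in the main comparison. In wild-type mice 0 of 8 were called, against 0.508% of all genes, and *Hprt* (log2 fold change 0.23, SE 0.09, adjusted p = 0.233) and *Ywhaz* (0.36, SE 0.14, adjusted p = 0.237) were the members with an unadjusted p under 0.05, which 13.1% of all genes had. This fit had no term for the mouse. In the 5 wild-type mice sampled at both ages the corrected values changed by -0.04 to 0.35 for *Hprt* and by 0.16 to 0.62 for *Ywhaz*. With the mouse as a block 0 of 8 were called, against 350 of 9850 genes with limma and 24 of 9850 with edgeR in those mice. Without GC correction 0 of 8 were called in wild-type mice (0.396% of all genes), and the corrected groups did not separate for any member (0.914%). In SCA3 mice *Ppia* was at 4.21, 4.41, 4.72, 4.90 and 5.05 CPM at 9 months and at 5.67, 5.94, 6.05, 6.22 and 6.41 CPM at 17.5 months. These groups did not overlap, before or after correction, and *Ppia* was the only member of which this was true. After correction it held for 6.6% of all genes, and this share was not taken without correction. *Ppia* is taken up again in what follows. The log2 fold change of *Ppia* was 0.47 (SE 0.18, edgeR quasi-likelihood test, adjusted p = 0.0827). With the mouse as a block it was called, at 0.50 with limma (adjusted p = 0.0288, 18.4% of all genes called) and at 0.66 in the 2 SCA3 mice sampled at both ages (edgeR, adjusted p = 0.0279). It was also called when only the SCA3 samples were fitted (0.47, adjusted p = 0.0418, 6.46% of all genes). *Actb* had a log2 fold change of -0.37 with age in SCA3 mice (SE 0.28, adjusted p = 0.406), and in those 2 mice of -1.11 (adjusted p = 0.000857). That fit rests on 4 samples with 1 residual degree of freedom and called 36.2% of all genes. *Hprt* was called with age in SCA3 mice without GC correction (0.54, SE 0.14, adjusted p = 0.0149, with 19.4% of all genes called; 18.8% with upper-quartile library sizes, where it was called too) and had 0.13 (SE 0.09, adjusted p = 0.397) with it. DESeq2 without GC correction called *Hprt*, *Polr2a* and *Eef1a1* (24.6% of all genes).

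*Gusb* ranged from 44.7 to 65.7 CPM in wild-type mice at 17.5 months and was at 44.1, 44.2, 48.4, 48.6 and 53.2 CPM in SCA3 mice. Its corrected log2 fold change was -0.05 (interval -0.30 to 0.21) at 9 months and -0.08 (interval -0.33 to 0.17) at 17.5 months. *Ywhaz* ranged from 354 to 561 CPM in wild-type mice at 17.5 months, and the SCA3 samples of that age were at 365, 450, 457, 532 and 592, of which the last alone lay above the wild-type range. Its corrected fold changes were 0.10 (interval -0.20 to 0.40) and -0.05 (interval -0.35 to 0.25), the latter against 0.15 without correction. *Ppia* had -0.19 (interval -0.54 to 0.17) and 0.15 (interval -0.19 to 0.50). *Eef1a1* ranged from 8067 to 9228 CPM in wild-type mice at 17.5 months, and the SCA3 samples were at 7890, 9078, 9512, 10151 and 11154. It had the widest of these intervals, with 0.29 (interval -0.25 to 0.83) and -0.17 (interval -0.71 to 0.38), against -0.14 (interval -0.46 to 0.18) and 0.12 (interval -0.20 to 0.44) without correction.

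Stability over the 22 samples was described by the SD of the log2 values. After GC correction *Hprt* had the smallest, 0.16, which 12.8% of all genes undercut, and *Gusb* was next at 0.20 (30.3% of genes). *Ywhaz* was at 0.25, close to the median of all genes (0.25), and *Ppia* at 0.31. *Eef1a1*, *Actb*, *Vcl* and *Polr2a* had 0.43, 0.44, 0.47 and 0.52, and for these 85.4% to 90.5% of all genes spread less. Without correction the order was another. *Eef1a1* was then the steadiest at 0.15, which 5.63% of genes undercut, followed by *Gusb* at 0.21, and *Hprt* was at 0.30 (53.2% of genes). With the GC curve and no quantile normalization, *Hprt* had 0.14 and *Eef1a1* 0.16. *Actb* was at 0.35 without correction and at 0.30 with the curve alone, and 65.2% and 65.3% of all genes spread less. *Vcl* and *Polr2a* were the most variable members on all 3 scales, from 0.47 to 0.53 and from 0.49 to 0.56. Taken within groups only, the corrected SD was 0.13 for *Hprt*, 0.48 for *Vcl* and 0.39 for *Polr2a*, and the 4 group means of *Polr2a* lay up to 1.07 apart.

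**Figure D5:**
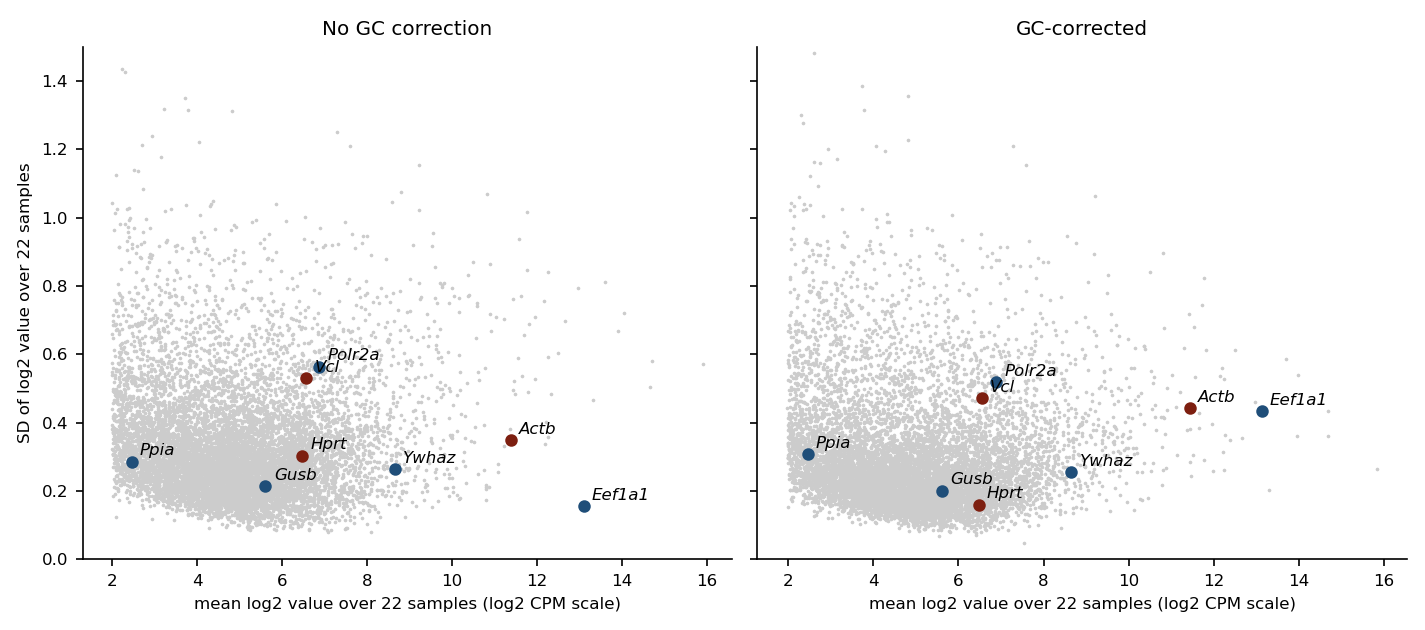
SD of the log2 value over 22 samples (vertical) against its mean (horizontal, log2 CPM scale) for all 9850 genes (grey), the study's references (red) and the other members (blue), without and with GC correction. *Eef1a1* rises from 0.15 to 0.43 and *Hprt* falls from 0.30 to 0.16 with correction, while *Vcl* and *Polr2a* stay high.

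Ratios between members are what qPCR with references uses, and their spread was summarised as the geNorm M value, the mean SD of a gene's log2 ratios to the other 7 members, where a smaller value marks a steadier gene. After GC correction M was 0.37 for both *Ywhaz* and *Hprt*, 0.40 for *Gusb*, 0.47 for *Actb*, 0.50 for *Ppia* and *Eef1a1*, 0.60 for *Vcl* and 0.61 for *Polr2a*. The steadiest pair was *Hprt* with *Gusb*, with an SD of their log2 ratio of 0.17, and the least steady was *Ppia* with *Polr2a* at 0.75. Without correction the order was another: M was 0.39 for *Ywhaz*, 0.40 for *Gusb* and *Eef1a1*, 0.45 for *Actb*, 0.47 for *Hprt*, 0.48 for *Ppia*, 0.58 for *Vcl* and 0.68 for *Polr2a*. The steadiest pairs were then *Ppia* with *Eef1a1* and *Hprt* with *Eef1a1*, both at 0.23, while *Hprt* with *Gusb* was at 0.38. Within the study's references the SD was 0.43 with and 0.59 without correction for *Actb* to *Hprt*, 0.54 and 0.63 for *Vcl* to *Hprt*, and 0.62 and 0.45 for *Actb* to *Vcl*. At 17.5 months the log2 ratio of *Actb* to *Vcl* averaged 5.18 ± 0.68 (SD) over the 6 wild-type samples, against 4.43 ± 0.55 over the 5 SCA3 samples. At 9 months it averaged 4.82 ± 0.53 and 5.08 ± 0.59.

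The study divided its qPCR values by the geometric mean of the references. The counterpart in the sequencing data is the mean log2 value of *Actb*, *Vcl* and *Hprt*. It reads whole transcripts, not the amplicons, so it is not the qPCR divisor itself. After GC correction the 6 wild-type samples at 9 months averaged 8.03 ± 0.22 (SD), against 8.16 ± 0.28 over the 5 SCA3 samples, a difference of 0.13. At 17.5 months the averages were 8.24 ± 0.22 and 8.20 ± 0.19, with a difference of -0.04. Without correction the differences were 0.07 and 0.18. With the GC curve alone they were 0.05 and 0.03. Leaving out each sample moved the corrected difference at 9 months between 0.05 (without SCA3 mouse 15) and 0.20 (without wild-type mouse 8), and at 17.5 months between -0.09 (without SCA3 mouse 1) and 0.04 (without SCA3 mouse 13). The differences over all samples with and without correction were smaller than the pooled SD within groups, which was 0.25 and 0.21 with correction and 0.23 and 0.24 without. At 17.5 months *Actb* and *Vcl* had opposite signs (-0.41 and 0.35), so that the mean of the 3 moved less than either. Over all 56 sets of 3 members, the corrected difference ran from -0.07 to 0.38 at 9 months and from -0.33 to 0.17 at 17.5 months, and in 9 sets it was nearer to 0 than for the study's references at 17.5 months, beside 28 at 9 months. Without correction the differences ran from -0.12 to 0.25 at 9 months and from -0.34 to 0.33 at 17.5 months, and 29 and 38 sets were nearer to 0 than the study's references.

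Of 31 further genes used as references elsewhere, 29 were in the table. Neither genotype comparison called any of them, beside 0% and 0.0406% of all genes. Without correction 4 were called at 17.5 months, where 21.1% of all genes were: *Rpl22*, a ribosomal protein gene (log2 fold change 0.53), *Eif4a2*, an RNA helicase of translation (0.66), and *Top1*, a topoisomerase (0.47), rose, and *Psmb2*, a proteasome subunit gene (-0.30), fell. With age in SCA3 mice, *Cyc1*, which encodes cytochrome c1 (0.33, adjusted p = 0.0292), and *Vps29*, a retromer component (0.38, adjusted p = 0.0293), rose after correction (edgeR quasi-likelihood test), where 11.5% of all genes were called. The median log2 fold change of the 29 was -0.02 at 9 months and 0.0043 at 17.5 months. Their corrected SDs had a median of 0.25, while the median of the 8 members was 0.37 and that of all genes 0.25. Without correction these medians were 0.27, 0.29 and 0.29, and the gap between the members and all genes was gone. The smallest were those of *Tbp*, the TATA-binding protein (0.12), *Rab7*, a small GTPase of late endosomes (0.13), and *Psmb2* (0.16), and among the largest were those of *Rpl22* (0.47) and *Tfrc*, the transferrin receptor (0.42). *Tfrc* is known to be strongly expressed in red cell precursors. The summed level of 9 markers of those cells, led by *Alas2*, ranged from 23066 to 121828 CPM among the wild-type samples at 17.5 months and from 38915 to 79201 CPM in the SCA3 samples, and its part in the spread of *Tfrc* was not tested. No marker of the 7 blood lineages was called between genotypes at either age. Of 10 neutrophil markers looked for, 7 were in the table, led by *S100a9*, while *Ltf*, *Camp* and *Ngp* were not. The summed CPM of the 7, which carries no GC correction, did not overlap between genotypes at 17.5 months. It was 3247 to 6357 in wild-type and 7392 to 16130 in SCA3 mice. At 9 months it ranged from 2918 to 15566 and from 2894 to 13916. Without correction 21.1% of all genes were called between genotypes at 17.5 months. After correction 3.2% of all genes did not overlap at that age, and this share was not taken without correction. With age in wild-type mice 1 of 8 T cell markers was called, against 0.508% of all genes. With age in SCA3 mice 1 of 7 B cell and 1 of 8 T cell markers were called, against 11.5% of all genes. The part of these cells in the values of the reference genes was not tested.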

How the data were processed

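RNA from the blood of 15 mice (22 samples) was depleted of globin RNA and sequenced from poly-A libraries that do not keep the strand. According to the methods, the authors cleaned reads with Sickle and Cutadapt (1.10), aligned them to GRCm38 with STAR (2.3.0e), kept reads with a single alignment and used HTSeq (0.6.1) for counting over RefSeq genes. The deposited values are raw counts for the 9850 genes averaging at least 4 CPM.

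Exonic GC content came from GENCODE M21 and was found for 99.5% of the genes; the rest took the median. A median regression spline on GC content (5 knots) was removed from each sample, followed by quantile normalization, a rewriting of conditional quantile normalization, and entered edgeR (4.0.16, R 4.3.3) as offsets. All 4 groups were fitted together with 1 coefficient each and tested by robust quasi-likelihood, with Benjamini-Hochberg adjustment over all genes. The study's likelihood ratio test, limma (3.58.1) and DESeq2 (1.42.0) were alternatives, and the script was tested on simulated data. Log2 values carry a pseudocount of 1 count. Descriptions of spread, ratios and likeness have no test.

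Replicate numbers are mouse numbers, so samples of the same mouse are paired. Their deviations from the group means had a mean correlation of 0.34 over the 5 wild-type pairs and 0.04 over the 2 SCA3 pairs, against -0.05 and -0.0045 between other samples.

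The members and lists were chosen with earlier results of these data known. Named beside all 8 members were the 3 genes most like each of the study's references, the other reference genes that were called or had the 3 smallest or largest SDs, and the most abundant markers. Some items that this rule names are not reported here.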

Additional observations from a re-analysis of the deposited data

Results flagged for a closer look

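In 3 of 36 groups of corrected values, a single sample stood apart from the rest of its group by Dixon's criterion, where chance gives about 1.8. *Ywhaz* was at 9.262 on the log2 scale in SCA3 mouse 1 at 17.5 months, while the other 4 samples lay between 8.55 and 8.69. *Polr2a* was at 7.387 in wild-type mouse 8 at 9 months, against 6.66 to 6.82 in the other 5. *Polr2a* was at 6.515 in SCA3 mouse 3 at 9 months, against 7.51 to 7.90 in the other 4.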

How the results depend on the processing

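Under the alternatives, 331 values of single members kept their direction and side of the threshold, 37 changed direction, 11 passed the threshold and 1 lost it. Between genotypes at 9 months, *Vcl* (0.03) became -0.0402 with GC content and length corrected together, -0.0036 with the GC curve alone, -0.1655 with RIN as a covariate, and ranged from -0.1634 to 0.1653 on leaving out each sample. *Hprt* (0.0015) became -0.0006 with the curve alone, -0.0007 with at least 10 counts in every sample, -0.0543 with RIN, and -0.0443 to 0.0395. *Gusb* (-0.05) became 0.0496 with library totals and 0.021 with RIN, and ranged from -0.1621 to 0.0366. *Eef1a1* (0.29) became -0.1383, -0.0623 and -0.1516 without GC correction (TMM, library totals, upper quartile), -0.1427 with DESeq2 and -0.1768 with the curve alone. At 17.5 months, in the same order, *Hprt* (-0.10) became 0.4021, 0.2892, 0.3512 and 0.4102 (DESeq2), *Ywhaz* (-0.05) 0.1501, 0.0728, 0.1028, 0.1518 and, with the curve alone, 0.0388, and *Eef1a1* (-0.17) 0.1209, 0.0258, 0.0738, 0.1287 and 0.0307. *Ywhaz* ranged from -0.2029 to 0.0201 on leaving out samples, and *Ppia* (0.15) became -0.1374 with library totals and -0.0516 with upper-quartile sizes. With age, *Polr2a* in wild-type mice (0.05) became -0.023 and -0.1211 with the mouse as a random and as a fixed block and ranged from -0.093 to 0.1736, and *Hprt* in SCA3 mice (0.13) became -0.2677 with GC content and length. None of these reversed values was called, apart from *Hprt* at 17.5 months with TMM and DESeq2. The causes were not tested.

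At 17.5 months 1 member was called with TMM alone, 1 with upper-quartile sizes and 2 with DESeq2. For the difference 1 was called with DESeq2, and 0 to 1 on leaving out samples. With age in SCA3 mice the count was 2 with TMM alone, 2 with upper-quartile sizes, 3 with DESeq2, 2 with the limma replicate block, 2 with only these groups, 0 with RIN and 3 with the mouse as a fixed block; the pairing changed no other count of members. Of the 29 other reference genes, 4 were called at 17.5 months without GC correction, where 21.1% of all genes were. With age in SCA3 mice 5 were called without GC correction (19.4% of all genes) and 6 with the curve alone (1075 of all 9850 genes). The mean of the 3 references at 17.5 months moved to 0.1798 and the SD of *Hprt* to 0.3033 without correction. Over all genes, 4 were called at 17.5 months, but 124 by the likelihood ratio test, 2080 with TMM alone, 2680 with DESeq2 and 0 with library totals or RIN. With age in SCA3 mice 1135 were called, but 1912 with TMM alone, 112 with RIN, 257 with GC content and length, and 3564 with the fixed block. The GC curve alone and the alternatives for the other reference genes were chosen after seeing the data. A fit of only the groups compared was not run for the difference, which uses all 4 groups.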
